A study of Drosophila melanogaster with 17 samples.

Results

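The tissue dependence of the orco2 effect was measured in 40-day-old mated male Drosophila melanogaster by setting the change between orco2 mutants and w1118 flies in guts against the same change in heads. The 10 libraries were those labelled day 40 and either w1118 or orco2, out of 17 in the series, and they made 4 groups, namely w1118 heads (n = 2), orco2 heads (n = 2), w1118 guts (n = 3) and orco2 guts (n = 3). All groups shared the same housing, at 25 °C and 60% humidity in vials of 20 with a day of 12 h light, and tissue was dissected at ZT8, which is 8 h after lights on, so every value belongs to a single time of day. Polyadenylated RNA was sequenced. To estimate spread, the test of the head change also used the day 3 head libraries of both genotypes (8 head libraries in all), and that of the gut change the day 40 guts of per01, a period null allele (9 gut libraries in all). With only the 2 day 40 genotypes in each tissue's test, 3113 genes were called in heads and 5477 in guts. The labels do not say whether orco2 was crossed into the w1118 background, how many flies went into a library, or whether libraries of a group came from separate flies, so the spread that p-values rest on may be technical.

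Orco is the co-receptor that most odorant receptors of the fly need to reach the dendrite of an olfactory neuron and to form an ion channel there, and orco2 is known as a null allele marked with a working copy of white. Neither Orco nor its partner receptors are known as abundant products of the gut, so a change there is measured in a tissue far from the mutated gene's main site of use. The molecular clock in both tissues runs on the transcription factors Clk and cyc, which drive per, tim, vri, Pdp1 and cwo, while per and tim feed back to block Clk and cyc.

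The mutated gene and its marker matched the labels. Orco (FBgn0037324, chromosome 3R, 5407183 to 5412406, BDGP6.54 annotation) was read at 90 and 105 counts in the w1118 heads and at 24 and 33 counts in the orco2 heads. In guts Orco was read at 0, 14 and 0 counts in w1118 and at 0, 13 and 2 counts in orco2, too few for a test of the difference between tissues. The eye colour transporter gene w rose in both tissues, by 6.04 ± 0.29 in heads (log2 fold change ± SE, adjusted p = 6.4e-05 by edgeR) and by 4.42 ± 1.00 in guts (adjusted p = 0.0176). The gut rise did not pass without orco2 gut replicate 3, taken up below (adjusted p = 0.0613 by edgeR). The difference of w between tissues, -1.43 ± 1.15, did not pass (adjusted p = 0.396). The tissues were told apart by their own markers: the summed level of 38 phototransduction genes lay between 113190 and 121590 counts per 1e+06 counts (CPM, scaled within each tissue) in heads and between 1628 and 1764 in guts, and 33 digestive proteases summed to between 78.4 and 378 CPM in heads and between 12913 and 49944 in guts. The highest of those head values, 378 CPM, was that of w1118 head replicate 2.

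Total counts ran from 25792664 to 41693684 per library. The gut libraries spread more than those of the heads, with a median dispersion of 0.176 in the gut fit and 0.0282 in the head fit. The joint fit behind each difference shared a common spread per gene over both tissues, with a median dispersion of 0.0562. That is below the gut fit, so SEs and p-values of differences may be too small for the spread of guts. A difference can have a smaller SE than the gut change within it. Among the guts, orco2 replicate 3 lay between replicates 1 and 2 of its group for 80.5% of 6641 genes, where the other 8 gut libraries lay between their partners for 9.68 to 44.2% of genes. It was closely given by 0.455 times replicate 1 plus 0.605 times replicate 2, with a median squared residual of 2.04 times the counting variance, against 27.2 for replicates 1 and 2. Whether replicate 3 is a separate sample cannot be told from the files, so the counts that lead each group of genes below are also given without it.

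Of 10038 genes tested in both tissues, 1943 (19.4%) responded to orco2 by different amounts in guts and heads. The gut response was higher than the head response for 869 genes (8.66%) and lower for 1074 (10.7%). Each tissue alone gave 987 higher genes (8.06% of 12243) and 599 lower genes (4.89%) in orco2 heads, and 1544 higher genes (11.5% of 13453) and 2029 lower genes (15.1%) in orco2 guts. Without orco2 gut replicate 3 the gut counts were 144 higher (1.06% of 13558) and 446 lower (3.29%). Genes rose, fell or changed here when the adjusted p of the edgeR quasi-likelihood test was under 0.05. Without orco2 gut replicate 3 the difference was called for 658 of 10135 genes (6.49%), of which 653 were among the 1943. By direction, 2.64% of the 10135 were then higher and 3.85% lower. Leaving out any 1 head library brought the count to between 271 and 381, and leaving out w1118 gut replicate 1 brought it to 3811. Leaving out w1118 head replicate 2 together with orco2 gut replicate 3 left 3 genes.

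The 1943 genes fell into 5 classes. In 96 genes (0.956% of those tested) the change was past the threshold in both tissues and opposite in sign, in 231 (2.3%) it was past the threshold in heads only, and in 1186 (11.8%) in guts only. A further 64 (0.638%) changed in the same direction by different amounts, 55 of them more in guts, and 366 passed in the difference but in neither tissue alone. Without orco2 gut replicate 3 the same 5 classes held 15, 146, 198, 14 and 285 genes. A missed threshold is not an absence of change: of the guts-only genes, 927 had a 95% interval of the head change inside ±1 on the log2 scale, but of the heads-only genes 41 had such an interval in guts. Genes past the threshold in both tissues numbered 425, and 325 of them had the same sign, or 112 and 97 without orco2 gut replicate 3. Over all 10038 genes, the head and gut changes had a Pearson r of 0.175 and a Spearman rho of 0.237, which describes these libraries only, since genes are not independent replicates.

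**Figure D1:**
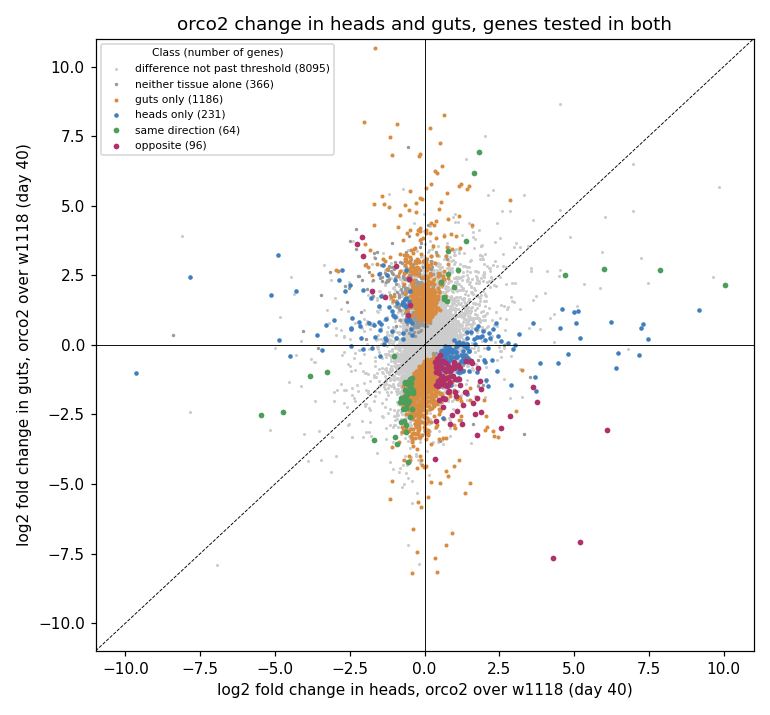
Each point is 1 of the 10038 genes tested in both tissues, with its log2 fold change of orco2 over w1118 at day 40 in heads on the horizontal axis and in guts on the vertical axis, coloured by class, and the dashed line marks equal change. The 96 genes of the opposite class lie mostly to the lower right, where orco2 was higher in heads and lower in guts, and the 1186 guts-only genes form a vertical band around a head change of 0.

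The sizes in guts depend on the scaling. The median gene changed by 0.02 in the head fit and by -0.23 in the gut fit, and by 0.01 in both tissues in the joint fit, where the median difference was -0.09. Head and gut changes below are from the fit of each tissue and differences are from the joint fit, as are the medians of gene lists, so a difference need not equal the gut change minus the head change exactly. All 96 genes of the opposite class had opposite signs under the joint scaling too. In bulk tissue, fewer cells of a type and less RNA per cell cannot be told apart. The tissues also sit in separate tables, counted over 23882 features for heads and 18354 for guts, so tissue and table cannot be told apart in any difference, and levels set across the tissues come from tables scaled separately.

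Heat shock genes rose in orco2 heads and fell in orco2 guts for 3 members, and fell in guts only for 8. Hsp70 chaperones refold proteins and are made in large amounts under heat or other proteotoxic stress, and the fly has several near-identical copies at 2 neighbouring loci, so reads of 1 copy may have been counted for another. Hsp70Aa (FBgn0013275, chromosome 3R, 11954163 to 11956544) was read at 0.198 and 0.142 CPM in w1118 heads and at 3.06 and 3.81 CPM in orco2 heads. In guts it was read at 90.8, 44.8 and 39.3 CPM in w1118 and at 0.205, 0.258 and 0.382 CPM in orco2. The head groups and the gut groups did not overlap, and the order of the genotypes was turned around between the tissues. Lack of overlap was common: of all genes tested in both tissues, 68.7% showed it in heads and 55.9% in guts. These shares stand beside each lack of overlap given below. Hsp70Aa thus rose by 4.31 ± 0.48 in orco2 heads (adjusted p = 0.00172 by edgeR) and fell by 7.91 ± 1.38 in orco2 guts (adjusted p = 0.00823), a difference of -11.99 ± 0.72 (adjusted p = 0.000349, and 0.00287 without orco2 gut replicate 3). The neighbouring copy Hsp70Ab (11958535 to 11960909) was read at 0.395 and 0.454 CPM in w1118 heads, 13.3 and 18.1 in orco2 heads, 144, 54.1 and 43.1 in w1118 guts and 0.563, 0.773 and 0.436 in orco2 guts. Its libraries were ordered in the same way, and its difference was -12.29 ± 0.91 (adjusted p = 0.000599).

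The 4 copies of the other locus, Hsp70Ba, Hsp70Bb, Hsp70Bbb and Hsp70Bc, had head changes of 0.34 to 1.35, which did not pass the threshold, and the difference between the loci was not tested. They fell in guts by between 5.56 and 7.91 on the log2 scale. For Hsp70Bc the w1118 guts held 172, 52.7 and 70.7 CPM and the orco2 guts 0.717, 0.322 and 0.382. In the per01 guts, which carry a period null allele and entered the gut fit to estimate spread (totals of 34802305, 28204738 and 33552229 counts), the raw counts were 45, 0 and 86 for Hsp70Aa and 161, 12 and 326 for Hsp70Ab. The w1118 guts held 3849, 1561 and 1093 raw counts of Hsp70Aa and the orco2 guts 8, 8 and 14, so the w1118 libraries were also above all 3 per01 libraries.

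Other members of the heat shock group moved with them. Of 21 heat shock genes tested in both tissues, 11 had a lower response in guts than in heads and 10 did not pass, beside 10.7% of all genes that were lower, and 9 of the 11 kept the call without orco2 gut replicate 3. In guts 12 of 23 heat shock genes fell, beside 15.1% of all genes, or 7 without that replicate, beside 3.29%. The list's median change was 0.44 in heads and -2.15 in guts, beside 0.01 in each tissue over all genes. Hsp26, a small heat shock protein, was read at 6.80 and 5.50 CPM in w1118 heads, 19.7 and 19.8 in orco2 heads, 1308, 261 and 215 in w1118 guts and 88.6, 122 and 112 in orco2 guts. Its w1118 guts were uneven, with replicate 1 far above the others, and its opposite change (1.69 ± 0.25 in heads, -2.71 ± 0.74 in guts) had a difference past the threshold with all libraries (adjusted p = 0.027 by edgeR) but not without orco2 gut replicate 3 (adjusted p = 0.0669). DnaJ-1, the co-chaperone that feeds clients to Hsp70, fell in guts by 2.58 ± 0.50, as did stv, a co-chaperone of the BAG family, by 3.73 ± 0.40, while neither passed in heads.

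The long noncoding RNA of the heat-inducible omega locus, lncRNA:Hsromega (FBgn0001234, chromosome 3R, 21296127 to 21317836), which builds nuclear speckles that hold RNA-binding proteins, showed the same reversal at high abundance. Its level was 291 and 272 CPM in w1118 heads and 358 and 383 in orco2 heads. The guts held 854, 740 and 960 CPM in w1118 and 141, 120 and 126 in orco2. It rose by 0.40 ± 0.10 in heads (adjusted p = 0.0407 by edgeR) and fell by 2.96 ± 0.31 in guts, with a difference of -3.12 ± 0.23 (adjusted p = 0.000586, and 0.00641 without orco2 gut replicate 3).

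**Figure D2:**
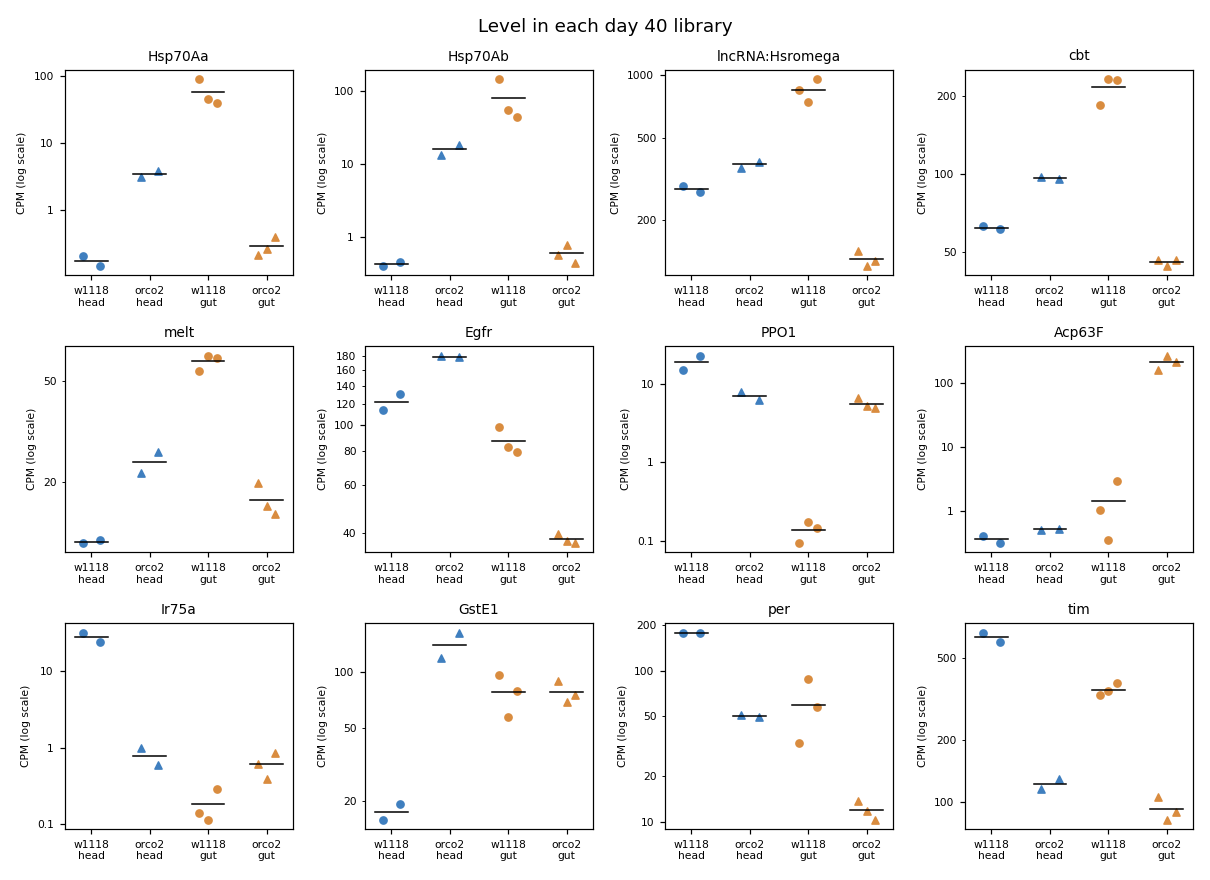
Level of 12 genes in each of the 10 day 40 libraries, in CPM on a log axis, with heads in blue, guts in orange, w1118 as circles, orco2 as triangles and the group mean as a line. In the top row and for melt and Egfr the orco2 heads lie above the w1118 heads and the orco2 guts below the w1118 guts, while per and tim are lower in orco2 in both tissues.

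Among the other genes of opposite change were regulators of transcription, growth and immunity. Direction was higher in orco2 heads and lower in orco2 guts for 87 of the 96 genes and the reverse for 9. Without orco2 gut replicate 3, 15 of the 96 stayed in the class, while 69 of the 96 kept the difference itself and 54 were called in heads only. Those 15, named after their values were seen, were cbt, Culd, Egfr, Hsp70Aa, Hsp70Ab, lncRNA:Hsromega, melt, Pino, Sardh, SCaMC, olf186-M, CG5773, CG8560, CG16704 and CG31689.

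The transcription factor cabut, cbt (FBgn0043364, chromosome 2L, 476446 to 479688), which links sugar sensing and the clock to metabolic genes, was read at 62.9 and 61.4 CPM in w1118 heads and 97.3 and 95.5 in orco2 heads. In guts its level was 184, 232 and 230 CPM in w1118 and 46.6, 44.3 and 46.9 in orco2. Spread within each group was small beside both changes, which were 0.64 ± 0.11 in heads (adjusted p = 0.0122 by edgeR) and -2.47 ± 0.28 in guts (adjusted p = 0.00316). The difference was -2.86 ± 0.20 (adjusted p = 0.000531). In the gut table the per01 libraries held 2423, 1891 and 3219 raw counts of cbt, between the 1377 to 1821 of the orco2 guts and the 6391 to 8082 of the w1118 guts.

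Melted, melt (FBgn0023001, chromosome 3L, 7134516 to 7143074), a membrane-associated modulator of insulin and TOR signalling, was read at 11.5 and 11.8 CPM in w1118 heads and 21.8 and 26.2 in orco2 heads. Its guts held 55.0, 62.9 and 61.9 CPM in w1118 and 19.7, 16.1 and 15 in orco2, and the difference was -2.87 ± 0.25 (adjusted p = 0.00123 by edgeR). The receptor tyrosine kinase Egfr, needed for growth of intestinal stem cells among many other tissues, rose by 0.56 ± 0.15 in heads and fell by 1.44 ± 0.19 in guts. Its 2 genotypes did not overlap in either tissue, and the lowest orco2 head (178 CPM) and the highest orco2 gut (39.5 CPM) lay on opposite sides of all w1118 libraries (79.7 to 130).

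Achilles, Achl, a clock-controlled gene known from fly heads to hold immune genes down, rose in heads by far more than it fell in guts. It was read at 3.75 and 4.42 CPM in w1118 heads, 49.9 and 50.4 in orco2 heads, 3.80, 2.96 and 2.91 in w1118 guts and 1.15, 1.06 and 1.20 in orco2 guts. The head rise of 3.62 ± 0.21 (adjusted p = 0.000117 by edgeR) stood beside a gut fall of 1.73 ± 0.55 (adjusted p = 0.0471), and the call on the fall was lost without orco2 gut replicate 3 (adjusted p = 0.13). Its difference of -5.11 ± 0.28 passed under all 20 alternatives, as did those of Hsp70Aa and PPO1. No other gene followed under the alternatives passed under all of them, and not every gene named here was followed. Culd, a CUB-domain membrane protein known from photoreceptors, changed little in heads (0.36 ± 0.10, adjusted p = 0.0471) but fell from 60.0, 90.4 and 76.4 CPM in w1118 guts to 4.87, 4.19 and 4.03 in orco2 guts.

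The reverse order, lower in orco2 heads and higher in orco2 guts, was led by CG8560 (chromosome 3L, 7402332 to 7404181). It was read at 1.16 and 1.33 CPM in w1118 heads, 0.387 and 0.208 in orco2 heads, 157, 103 and 129 in w1118 guts and 1532, 847 and 1168 in orco2 guts. The head values rest on 41, 47, 11 and 6 counts, so the fall of 2.05 ± 0.49 there is less precise than the gut rise of 2.95 ± 0.37, and the difference was 5.24 ± 0.50 (adjusted p = 0.00197 by edgeR). The odorant binding protein gene Obp99a had the same order, with a change of -2.08 ± 0.53 in heads and of 3.65 ± 0.93 in guts (difference 5.96 ± 1.16, adjusted p = 0.014). Its w1118 guts were uneven, at 6.63, 25.3 and 3.56 CPM, but all lay below the 152, 197 and 169 CPM of the orco2 guts. These 2 genes were chosen after their values were seen, and the remaining 7 were chinmo, Sidpn, MFS9, CG6479, CG40191, CG42232 and the antisense gene asRNA:CR43152, whose reads cannot be told from those of its partner strand here.

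Part of the immune signalling genes responded by different amounts in guts and heads. Toll and Imd are the receptor pathways that switch on antimicrobial peptides through the NF-kappaB factors dl, Dif and Rel. Of 38 members tested in both tissues, 18 had a lower response in guts than in heads and 20 did not pass, beside 10.7% of all genes that were lower, and 9 of the 18 kept the call without orco2 gut replicate 3. In guts 20 of 39 members fell with all libraries, beside 15.1% of all genes, and 2 without that replicate, beside 3.29%. The median change was 0.31 in heads and -0.86 in guts. Peptidoglycan receptors were 4 of the 6 members of opposite change, namely PGRP-LC and PGRP-LA of the Imd branch and PGRP-SA and PGRP-SD of the Toll branch, and the others were the Toll-activating protease modSP and pirk, which lowers Imd receptor activity. For modSP, the heads held 64.1 and 72.4 CPM in w1118 and 130 and 118 in orco2, and the guts 62.6, 75.7 and 62.3 in w1118 and 34.8, 34.9 and 35.0 in orco2. Neither pair of groups overlapped, and the difference was -1.80 ± 0.20 (adjusted p = 0.00293 by edgeR, and 0.0162 without orco2 gut replicate 3). The gut fall of modSP did not pass without that replicate (adjusted p = 0.0531 by edgeR). None of the 6 members then stayed in the opposite class.

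Transcription factors of the 2 pathways fell in guts without a called change in heads. For dl, the guts held 146, 159 and 157 CPM in w1118 and 49.6, 46.5 and 45.3 in orco2, a fall of 1.94 ± 0.23, beside -0.24 ± 0.17 in heads. Rel and Dif fell in guts by 1.42 each, and the inhibitor cact by 1.21, and without orco2 gut replicate 3 the gut falls of Rel and cact did not pass (adjusted p = 0.0534 and 0.0512 by edgeR). The recognition protein gene PGRP-SB1 went the other way round: it rose in heads by 2.79 ± 0.32, from 103 and 94.4 CPM to 844 and 513, and its gut change of -0.17 ± 0.38 did not pass.

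The effectors were less even. Of 31 antimicrobial peptide and immune effector genes, 7 had a lower response in guts, 1 (Dso2) a higher one and 23 did not pass, beside 10.7% and 8.66% of all genes, and without orco2 gut replicate 3 the counts were 2 and 1. Their median change was 1.32 in heads and -0.27 in guts. BomBc1, a secreted Toll-induced peptide, rose in heads from 9.80 and 6.44 CPM to 117 and 120 (3.87 ± 0.41, adjusted p = 0.00138 by edgeR), whereas its gut libraries overlapped. The Imd-induced peptide Dro was read at 288 and 27.9 CPM in the w1118 heads, a wide spread beside the 739 and 835 CPM of the orco2 heads, and passed in guts alone, where it fell by 3.49 ± 0.56.

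Genes of protein synthesis showed a broad and small difference. Cytosolic ribosomal proteins form the translating ribosome. Of 80 tested, 37 had a lower response in guts than in heads, 1 a higher one and 42 did not pass, beside 10.7% and 8.66% of all genes, and the 37 became 5 without orco2 gut replicate 3. In heads 56 of the 80 rose, against 8.06% of all genes, with a list median of 0.61 in heads and -0.20 in guts. In guts 4 of 83 fell and 1 rose, beside 15.1% and 11.5% of all genes. RpS6, the ribosomal protein that S6 kinase phosphorylates, was read at 1305 and 1453 CPM in w1118 heads, 1911 and 1860 in orco2 heads, 1404, 1577 and 1941 in w1118 guts and 967, 883 and 917 in orco2 guts. RpS6, RpL3 and RpL17 were the 3 ribosomal members of opposite change, and the difference of RpL3 was -1.50 ± 0.27 (adjusted p = 0.0118 by edgeR, and 0.0402 without orco2 gut replicate 3). The gut falls of these 3 genes did not pass without that replicate.

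Insulin and TOR signalling act on growth and on the making of ribosomes. Of 24 insulin, adipokinetic and growth signalling genes, 9 had a lower response in guts and 15 did not pass, beside 10.7% of all genes that were lower, with 3 left without orco2 gut replicate 3. The kinase gene mTor was read at 143, 170 and 117 CPM in w1118 guts and 41.0, 38.1 and 45.5 in orco2 guts, a fall of 2.02 ± 0.24, beside -0.32 ± 0.10 in heads. Its downstream kinase gene S6k rose in heads by 0.53 ± 0.14 and fell in guts by 1.00 ± 0.24, a fall that did not pass without orco2 gut replicate 3 (adjusted p = 0.0869 by edgeR). Of 72 mitochondrial ribosomal proteins, 8 had a higher response in guts than in heads and 64 did not pass, beside 8.66% of all genes that were higher. Their median change was 0.23 in heads and 0.55 in guts, and 2 of the 8 kept the call without orco2 gut replicate 3.

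The opposite class also held secreted and metabolic proteins. The 4 chitinase-like growth factors Idgf1, Idgf2, Idgf3 and Idgf4 each rose in heads and fell in guts. Idgf2 was read at 130 and 161 CPM in w1118 heads, 470 and 390 in orco2 heads, 91.8, 111 and 83.9 in w1118 guts and 72.9, 55.7 and 63.1 in orco2 guts. All its groups were apart within a tissue, and the difference was -2.14 ± 0.27 (adjusted p = 0.00435 by edgeR). Within the list of 25 peritrophic matrix, mucin and chitinase genes that holds them, 9 were lower in guts than in heads, 2 were higher and 14 did not pass, beside 10.7% and 8.66% of all genes, or 6 and 1 without orco2 gut replicate 3. Lsd-2, the perilipin that coats lipid droplets, rose in heads by 1.01 ± 0.13 and fell in guts by 1.47 ± 0.32. Without orco2 gut replicate 3 the gut falls of Lsd-2 and of Idgf1, Idgf2, Idgf3 and Idgf4 did not pass. Sardh, a mitochondrial enzyme of sarcosine breakdown, rose in heads from 36.4 and 43.4 CPM to 133 and 113 and fell in guts from 13, 12.3 and 8.60 CPM to 3.53, 1.55 and 2.81. Outside the opposite class, pyruvate kinase, PyK, had a difference of -1.83 ± 0.26 and Pepck2, an enzyme of glucose synthesis, one of 2.98 ± 0.42. Both were called in guts only. The gut fall of PyK did not pass without orco2 gut replicate 3 (adjusted p = 0.0552 by edgeR). PyK and Pepck2 were among 5 lower, 1 higher and 12 unpassed of 18 glycolysis genes, beside 10.7% and 8.66% of all genes. Without orco2 gut replicate 3 the list held 3 lower and 1 higher.

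Fat body markers moved with these head changes. The summed level of fat body and haemolymph proteins was 7137 and 8569 CPM in w1118 heads and 17810 and 15123 in orco2 heads. The head groups were thus apart, as were 68.7% of single genes tested in both tissues. Of 18 such genes tested in heads, 8 rose, beside 8.06% of all genes, and 1 fell, beside 4.89%. In guts the sums overlapped, at 1314, 654 and 1437 CPM in w1118 and 1292, 921 and 1086 in orco2. The part of fat body in the head rises of immune, ribosomal, Idgf and lipid genes was not tested.

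Detoxification genes were among those changed in heads only. Of the 231 heads-only genes, 163 rose and 68 fell, and 84 stayed in the class without orco2 gut replicate 3. Cyp6a8, a cytochrome P450 that oxidises toxins, was read at 7.09 and 6.27 CPM in w1118 heads and 350 and 781 in orco2 heads. In guts it ranged from 64 to 443 CPM in w1118 and from 115 to 195 in orco2, so the gut groups overlapped, and its difference was -7.23 ± 1.07 (adjusted p = 0.00645 by edgeR). GstE1, a glutathione transferase, rose in heads from 15.9 and 19.2 CPM to 119 and 164 (3.02 ± 0.22), while the guts held 97.2, 57.4 and 79.6 CPM in w1118 and 90.1, 69.3 and 75.0 in orco2. The interval of its gut change, -1.06 to 0.58 on the log2 scale, excluded a change of the size seen in heads.

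Over the whole P450 family of 73 genes, 14 had a lower response in guts than in heads, 2 a higher one and 57 did not pass, beside 10.7% and 8.66% of all genes, or 8 and 2 without orco2 gut replicate 3. Of 75 tested in heads, 23 rose and 5 fell, beside 8.06% and 4.89% of all genes. Of 77 tested in guts, 10 rose and 11 fell, beside 11.5% and 15.1%, or 2 and 3 without that replicate, beside 1.06% and 3.29%. The family had 6 heads-only and 6 guts-only members. Its sum was 5472 to 7138 CPM in w1118 guts and 11076 to 20638 in orco2 guts. Sums of glutathione transferases (2721 to 4052, then 4138 to 4508 CPM) and UDP-glycosyltransferases (846 to 1386, then 2631 to 2757 CPM) were ordered in the same way. Cyp12d1-d and Cyp6a17 changed the same way in both tissues but more in heads: Cyp12d1-d rose by 7.88 ± 0.77 in heads and by 2.46 ± 0.46 in guts, and Cyp6a17 fell by 5.46 ± 0.36 and by 2.75 ± 0.46. Cyp12d1-d has a near-identical neighbour, so its reads may be shared, and its gut rise did not pass without orco2 gut replicate 3 (adjusted p = 0.0508 by edgeR).

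The heads-only genes of highest rise included several nearly silent in w1118 heads. CG30091 was read at 2 counts in all over the w1118 heads and at 1054 over the orco2 heads, a ratio of 650 with an exact 95% interval of 179 to 5370 that covers counting error only. CG10140 gave a ratio of 180 (interval 49.4 to 1490), CG15423 one of 101 (27.4 to 837), and CG3117 rose from 0.113 and 0.142 CPM to 11 and 8.79. In guts CG15423 was abundant and did not separate the genotypes, at 161, 49.2 and 53.1 CPM in w1118 and 88.0, 56.2 and 71.1 in orco2.

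The heads-only falls included a receptor of the other olfactory family. Ir75a, an antennal ionotropic receptor for acids that works without Orco, was read at 31.3 and 23.7 CPM in w1118 heads and 0.985 and 0.588 in orco2 heads, a fall of 5.12 ± 0.46 (adjusted p = 0.00072 by edgeR). Gut levels were under 1 CPM in all 6 libraries, and its difference was 6.92 ± 0.66 (adjusted p = 0.00197). Of 8 antennal ionotropic receptors tested in both tissues, Ir75a and Ir41a were higher in guts than in heads in their response and 6 did not pass, beside 8.66% of all genes, and Ir41a lost the call without orco2 gut replicate 3 (adjusted p = 0.106 by edgeR). hoka, a septate junction protein of the midgut, fell in heads from 7.45 and 10 CPM to 0.281 and 0.312 but not in guts, where it held 384, 174 and 159 CPM in w1118 and 337, 212 and 266 in orco2. CG14292 and ND-51L2 were at 0 counts in both orco2 heads, at least 56.8-fold and 15.9-fold lower than in w1118 by a floor of 3 counts over the group. The difference of CG14292 was not called without orco2 gut replicate 3 (adjusted p = 0.0888 by edgeR) or without w1118 head replicate 2 (0.128), and passed under 9 of 20 alternatives. CG13978 was also in this set. In guts CG13978 and ND-51L2 were higher in orco2 without overlap, but neither rise passed (adjusted p = 0.0588 and 0.0871 by edgeR). CG13978 held 26.4, 26.5 and 4.21 CPM in w1118 guts and 126, 236 and 177 in orco2 guts. ND-51L2 held 5.26, 9.82 and 2.12 CPM in w1118 guts and 20.1, 43.0 and 29.8 in orco2 guts. CG14292, CG13978, CG15423 and hoka were all far more abundant in the guts than in the heads. The w1118 head replicate 2 held the higher value of all 4 within its pair, beside its higher sum of digestive proteases. Replicates 1 and 2 were close for CG13978 (2.09 and 2.27 CPM) and near 0 for CG15423 (0 and 0.0567 CPM). For CG14292 they held 1.21 and 4.74 CPM. Any link to the protease sum of replicate 2 was not tested. Without that library the difference was called for 373 genes in place of 1943 and the heads-only class held 41 in place of 231. The differences of CG13978, CG15423 and hoka still passed without it (adjusted p = 0.0417, 0.0418 and 0.0248 by edgeR).

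Male reproductive genes were among those that rose in guts only. Of the 1186 guts-only genes, 479 rose and 707 fell, and 197 stayed in the class without orco2 gut replicate 3. Acp63F, a seminal fluid protein of the accessory gland, was read at 1.01, 0.344 and 2.91 CPM in w1118 guts and 162, 267 and 215 in orco2 guts, while all heads held 0.312 to 0.519. Its rise of 6.99 ± 1.37 in guts (adjusted p = 0.0113 by edgeR) was part of a whole marker list. Of 59 accessory gland and seminal fluid genes tested in guts, 37 rose, beside 11.5% of all genes, or 6 without orco2 gut replicate 3, beside 1.06%. Of the 8 tested in both tissues, 5 were higher in guts than in heads in their response, beside 8.66% of all genes, or 4 without that replicate. The list summed to between 416 and 3994 CPM in w1118 guts and between 16514 and 23499 in orco2 guts.

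Testis and sperm genes summed to between 1385 and 5322 CPM in w1118 guts and between 10703 and 19631 in orco2 guts, and 6 of 29 rose there, beside 11.5% of all genes. Those 6 were no longer called without orco2 gut replicate 3. Muscle genes summed to 10336 to 14339 CPM in w1118 guts and 5408 to 6423 in orco2 guts, and 16 of 31 fell, beside 15.1% of all genes, or 8 without that replicate, beside 3.29%. Digestive proteases rose for 11 of 32 genes in guts, beside 11.5% of all genes, or 4 without that replicate, beside 1.06%. Their sums were 12913 to 22718 CPM in w1118 and 25318 to 49944 in orco2. The sums of accessory gland, testis and protease genes were higher, and that of muscle genes lower, in every orco2 gut than in every w1118 gut. Sums were apart for other markers as well. Neuron and synapse genes summed to 530 to 1065 CPM in w1118 guts and 352 to 376 in orco2 guts. Of 34 such genes 12 fell, beside 15.1% of all genes, or 1 without that replicate, beside 3.29%. Glial genes summed to 2328 to 4952 CPM in w1118 guts and 1566 to 1672 in orco2 guts. Lysozymes, digestive enzymes of the gut that break bacterial walls, summed to 47.7 to 163 CPM in w1118 guts and 882 to 2012 in orco2 guts. Of 7 lysozymes 4 rose, beside 11.5% of all genes, or 3 without that replicate, beside 1.06%. In all, the sums of 23 of the 40 lists did not overlap between the genotypes in guts, beside 55.9% of single genes tested in both tissues. How far these other tissues' markers bear on the gut differences above was not tested. The per01 guts held 4481, 8358 and 255 raw counts of Acp63F, so 1 of them was far below the other 2.

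**Figure D3:**
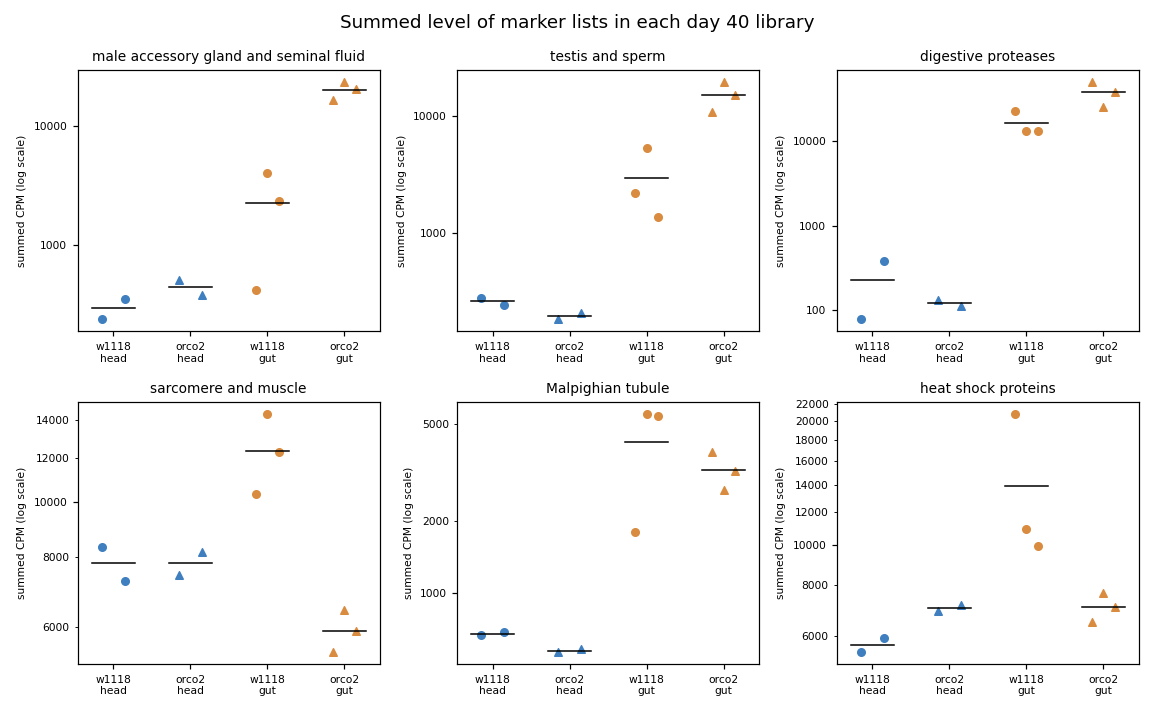
Summed level in CPM, on a log axis, of 6 gene lists in each of the 10 day 40 libraries, with heads in blue, guts in orange, w1118 as circles, orco2 as triangles and the group mean as a line. Accessory gland, testis and protease sums are higher, and muscle and heat shock sums lower, in all orco2 guts than in all w1118 guts, and Malpighian tubule sums overlap.

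PPO1, the prophenoloxidase of crystal cells that starts melanin formation, rose in guts only. Of the guts-only genes followed under the alternatives, it alone had a difference that passed under all 20. It was read at 0.0944, 0.172 and 0.144 CPM in w1118 guts and 6.61, 5.25 and 4.88 in orco2 guts, on 4, 6 and 4 counts against 258, 163 and 179. The heads held 15.2 and 22.8 CPM in w1118 and 7.88 and 6.16 in orco2, a change that did not pass (-1.43 ± 0.42, adjusted p = 0.0639 by edgeR), and the difference was 6.77 ± 0.46 (adjusted p = 0.000499). The per01 guts held 70, 48 and 92 raw counts of PPO1. Summed over all 19 haemocyte markers the guts held 380 to 446 CPM in w1118 and 382 to 395 in orco2, which overlap. The crystal cell factor gene lz fell in guts by 4.46 on the log2 scale from a level under 3 CPM, and did not pass without orco2 gut replicate 3 (adjusted p = 0.0723 by edgeR).

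The remaining guts-only rises of the highest fold were Sgp, CG43788, CG46394 and CG42711. Sgp went from 2.01, 1.38 and 0.576 CPM in w1118 guts to 486, 179 and 324 in orco2 guts. CG46394 and CG42711 were at 0 counts in all w1118 guts, and were at least 207-fold and 29.2-fold higher in orco2 guts by a floor of 3 counts over the group. Without orco2 gut replicate 3 their gut rises did not pass (adjusted p = 0.0509 and 0.0514 by edgeR), while their differences did (0.0162 and 0.0327). Among the guts-only falls beside Hsp70, CG14961 went from 29.1, 45.5 and 37.6 CPM to 1.23, 0.515 and 0.463, and CG8642 was uneven in w1118 guts, at 30.6, 17.1 and 2.02 CPM. The call on the difference of CG8642 was lost without orco2 gut replicate 3 (adjusted p = 0.0524 by edgeR). The Notch target gene E(spl)mbeta-HLH, active in intestinal enteroblasts, fell from 40.4, 55.3 and 49.2 CPM to 8.5, 7.41 and 7.14 in guts, and stayed near 6 to 10 CPM in all heads. Of 17 stem cell and enteroblast markers, 2 were lower in guts than in heads in their response (E(spl)mbeta-HLH and Egfr), 1 was higher (CycB) and 14 did not pass, beside 10.7% and 8.66% of all genes. CycB lost the call without orco2 gut replicate 3 (adjusted p = 0.09 by edgeR) and the other two kept it.

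**Figure D4:**
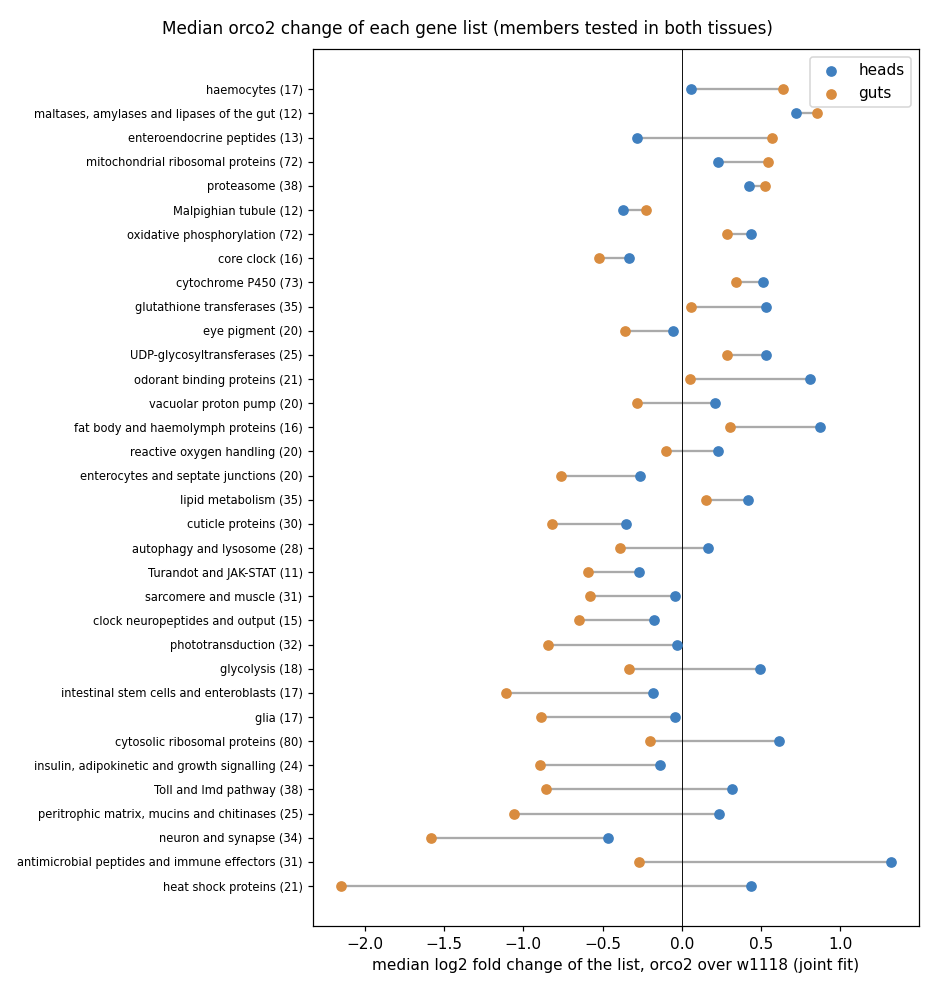
Median log2 fold change of orco2 over w1118 at day 40, from the joint fit, in heads (blue) and guts (orange) for each gene list with at least 10 members tested in both tissues, with the number of members in brackets, ordered by the median difference. Heat shock proteins lie at the bottom with 0.44 in heads and -2.15 in guts, and the medians of Toll and Imd genes lie on opposite sides of 0, at 0.31 and -0.86.

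The clock genes per, tim, vri, cwo and Pdp1 fell in both tissues, and the difference between tissues passed for none of these 5. per was read at 179 and 177 CPM in w1118 heads, 50.7 and 49.7 in orco2 heads, 33.4, 88.6 and 57.7 in w1118 guts and 13.7, 11.7 and 10.3 in orco2 guts. It was lower in orco2 without overlap in both tissues, and the difference was -0.50 ± 0.48 with a 95% interval of -1.59 to 0.59 (adjusted p = 0.48 by edgeR). For tim the difference was 0.44 ± 0.22 (interval -0.06 to 0.94) and for vri -0.12 ± 0.35 (interval -0.92 to 0.68). cwo and Pdp1 also fell in both tissues, with differences of -0.50 ± 0.24 and -0.54 ± 0.31 that did not pass, so a moderate difference in any of these 5 genes lies within the intervals. The gut fall of Pdp1 did not pass without orco2 gut replicate 3 (adjusted p = 0.058 by edgeR).

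The activator Clk differed. It was read at 41.4 and 37.6 CPM in w1118 heads and 55.5 and 60.8 in orco2 heads (0.56 ± 0.19, adjusted p = 0.0923 by edgeR), and at 88.2, 102 and 76.6 in w1118 guts and 46.4, 56.5 and 51.8 in orco2 guts (-1.03 ± 0.26, adjusted p = 0.0251). The groups were apart in both tissues and in opposite order, and the difference was -1.35 ± 0.23 (adjusted p = 0.0101, and 0.0366 without orco2 gut replicate 3). Without that replicate the gut fall did not pass (adjusted p = 0.0915 by edgeR), so Clk then passed in neither tissue alone. The kinase gene nmo, whose product acts on per and tim proteins, had a difference of 1.98 ± 0.36 (adjusted p = 0.0119), with 128 and 113 CPM in w1118 heads, 86.0 and 96.4 in orco2 heads, 28.8, 36.0 and 19.2 in w1118 guts and 70.5, 96.9 and 84.3 in orco2 guts. The casein kinase 2 subunits CkIIalpha and CkIIbeta also had a higher response in guts, and the photoreceptor gene cry and its partner jet a lower one. However, nmo, CkIIalpha, CkIIbeta and cry passed in neither tissue alone, and the gut libraries of cry overlapped. The gene jet passed in guts only (adjusted p = 0.0363 by edgeR), but not without orco2 gut replicate 3 (adjusted p = 0.13). In all, 3 of 16 clock genes were higher in guts than in heads in their response, 3 were lower and 10 did not pass, beside 8.66% and 10.7% of all genes, and without orco2 gut replicate 3 nmo and Clk were left.

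Gene length moved with the signed orco2 change in both tissues, which was lower in longer genes. Across 9998 genes with an annotated length, the Spearman rho of exonic length with the orco2 change was -0.419 in heads and -0.34 in guts, which describes these libraries and is not over replicates. The median difference was 0.21 in the shortest of 4 equal groups of genes by length (median 903 bases) and -0.34 in the longest (median 5310 bases), and 6.99% and 15.4% of genes were called lower in guts than in heads there. The part of length in the differences above was not tested.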

How the data were processed

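Poly(A) RNA-seq of 10 day 40 libraries was used. The deposited tables, 1 per tissue, hold raw counts per gene. The submitters' processing notes name the tools fastp, HISAT2, featureCounts and DESeq2 and the build dm6 for the deposited counts. Annotation release, versions, and settings for strand and multi-mapped reads are not given in the sources used here, so near-identical, overlapping and antisense genes are uncertain. Tables were joined on the gene identifier (18311 shared features), and names and coordinates came from the BDGP6.54 annotation (40 genes tested in both tissues had no entry in the name table). Genes passed filterByExpr (minimum count 10) in each tissue. Scaling was TMM within each tissue over full library totals. Tests were edgeR 4.0.16 quasi-likelihood F tests in R 4.3.3 with Benjamini-Hochberg adjustment over all genes tested (threshold 0.05): the difference on 10 libraries, the head change on all 8 head and the gut change on all 9 gut libraries. SEs were taken from the F statistic. Intervals of log2 changes and differences used these SEs, so they hold the spread between libraries. Total counts of 25792664 to 41693684 set the counting precision, and exact intervals of ratios and floors cover counting error only. Counts from 1 to 20 were even numbers in 60.4 to 69.3% of cases per library, so exact intervals of ratios may be too narrow.

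Members and the 40 gene lists were chosen with earlier results of these data known, and their counts and medians are descriptions. Named were Orco, per, w, every clock member, up to 8 genes of opposite change and 4 of same direction by smallest p, the 5 highest and 5 lowest heads-only and guts-only changes (at least 5 CPM in a group, no overlap of libraries), and up to 2 called members per list; other names were chosen after their values were seen. Same-numbered libraries had correlated deviations of r = -0.141 in heads and 0.0475, 0.16 and -0.0133 in guts, so numbers were not taken to pair libraries. Alternatives were DESeq2 1.42.0 size factors and Wald test, TMM over all libraries, other filters, limma 3.58.1 voom, all 17 libraries, a replicate block and each library left out; 2 were added after the data were seen. Where 1 library was left in a group, it was assumed to vary like the others. Single genes were followed under the alternatives only if named by the rules above, not if chosen after their values were seen. The fits were tested on simulated data.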

Additional observations from a re-analysis of the deposited data

Results flagged for a closer look

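Changes under the same genotype contrast that differed between heads and guts by the test of the difference itself numbered 1943 genes, of which 96 changed in opposite directions. The 8 of these with the smallest p had log2 differences (guts minus heads) of -5.11 for Achl, -11.99 for Hsp70Aa, -4.46 for Culd, -2.86 for cbt, -3.12 for lncRNA:Hsromega, -12.29 for Hsp70Ab, -5.56 for CG9733 and -2.87 for melt. For CG9733, the gut change alone did not pass without orco2 gut replicate 3 (adjusted p = 0.0795 by edgeR), as for Achl. The other 6 kept their opposite class without it.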

How the results depend on the processing

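The order of values below is the difference, then heads, guts, opposite change, heads only and guts only, beside 1943, 1586, 3573, 96, 231 and 1186 genes. With DESeq2 size factors, TMM over all libraries, the filter over the 4 groups together or no filter, each count stayed within 1.5 times, but higher calls in the difference fell from 44.7% to 38% with size factors, 23% with the joint filter and 27.8% with none. The DESeq2 Wald test gave 3246, 2303, 6507, 244, 359 and 2176, and limma-voom 2968, 1789, 5881, 154, 315 and 1951. All 17 libraries in the joint fit with 2 groups in each tissue fit gave 1937, 3113, 5477, 304, 213 and 1140. Leaving out each library gave 271 to 3811, 319 to 735, 590 to 3198, 15 to 106, 21 to 434 and 186 to 1858. Leaving out w1118 head replicate 2 and orco2 gut replicate 3 together, chosen after the data were seen, gave 3, 735, 590, 1, 1 and 1. The replicate block gave 1059, 1238, 2070, 32, 138 and 520, although the numbers did not pair the libraries by the check. With the head numbers crossed, also added later, the replicate block gave 1346, 2092, 2070, 53, 243 and 590. Fits with libraries left out also held fewer of them, and the cause of the changed counts was not tested. For named genes, 1848 of the refitted differences kept side and direction, 380 missed the threshold, 6 newly passed and 4 changed sign, none of them called: dco (-0.14 with the joint filter, -0.05486 without a filter), vri (-0.3358 to 0.18 as libraries were left out) and tws (-0.3355 to 0.000567). List medians of the difference kept their sign under 3 scalings except antennal ionotropic receptors. Gut dispersion (median 0.176) limits small differences.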
